A study of Homo sapiens with 6 samples.

Results

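The sites described here are genomic positions where SMAD2 was detected in all 4 immunoprecipitated libraries and where its peak stood higher in the ranking after palbociclib. They number 900 of the 5829 sites shared by the 4 libraries, and the whole series holds 36647 sites on chromosomes 1 to 22 and X. To choose them, peak summits lying no more than 250 bp from the next were merged into a site. The best score of each site in each library was then turned into a percentile over the shared sites, from 0 for the strongest to 100 for the weakest. A site was kept if both palbociclib libraries ranked it stronger than both activin libraries did and the group means lay at least 15 percentile points apart. The difference of the group means, activin minus palbociclib, is called the gain below. The sites were thus selected on the percentile ranks of their scores in all 4 libraries, and ranks, scores and gains are given as descriptions, with no test.

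The material was Hs578T, a human cell line from triple-negative breast cancer, studied by chromatin immunoprecipitation and sequencing (ChIP-seq) with an antibody to SMAD2. The activin group (2 libraries) received recombinant activin A at 50 ng/ml for 1.5 h. The palbociclib group (2 libraries) received the same activin A and also palbociclib at 1 µM for 24 h. All 4 libraries therefore come from activin-treated cells, and no library of unstimulated cells was analysed here. The sample titles name 1 input library for each treatment, but not the peak list it served. A difference between treatments and a difference between inputs therefore cannot be told apart. Nothing states that the replicates came from separate cultures, and with 2 libraries a group the spread between them may be technical.

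SMAD2 carries the signal of activin and TGF-β receptors: the activated receptor phosphorylates it, it joins SMAD4, and the complex gathers in the nucleus on regulatory DNA. SMAD2 itself holds DNA poorly, and partner transcription factors and SMAD4 help to place it. Palbociclib blocks CDK4 and CDK6, the kinases activated by D-type cyclins, which drive cells from G1 into S phase. CDK4 can also phosphorylate SMAD3, the close relative of SMAD2. A summit is the base of highest signal within a peak. The deposited score of a summit was read as a −log10 significance, which is not stated. Such a score rises with enrichment and also with the depth of a library, so libraries were compared by the order of their scores.

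The libraries differed in yield. The lists held 7241 to 27290 summits, the shortest being that of activin replicate 2, in which shared sites made up 80.7% of all sites. In the other 3 libraries they made up 21.4% to 30.5%. Scores of activin replicate 2 were also coarse: the 5829 shared sites carried 628 different scores there, and the largest group with 1 common score held 214 sites, or 3.67% of them. In the other 3 libraries the largest such group held at most 51 sites. Read numbers of the libraries are unknown from the sources used here.

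The 900 sites were 15.4% of the shared sites. Their median percentile was 62.5 in activin replicate 1 and 70.2 in activin replicate 2. It was 34.7 in palbociclib replicate 1 and 35.4 in palbociclib replicate 2. The medians thus lay in the weaker part of both activin rankings and in the stronger part of both palbociclib rankings. The gain ran from 15.0 to 64.7 points with a median of 25.6, and 656 sites gained at least 20 points, 301 at least 30, 122 at least 40 and 31 at least 50. The gap between the weaker palbociclib library and the stronger activin library ran from 0.154 to 56.5 points, with a median of 14.7. At 438 sites every one of the 4 pairings of a palbociclib with an activin library showed a gain of 15 points or more. Over all shared sites the number was the same 438 (7.51%), since any such site meets the rule.

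**Figure D1:**
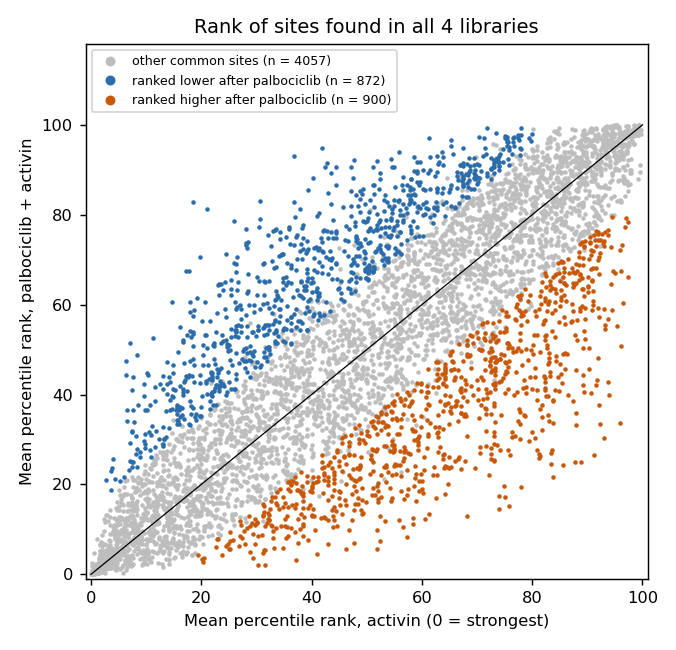
Mean percentile rank of each of the 5829 shared sites in the activin libraries (x axis) and the palbociclib libraries (y axis), with 0 the strongest. Orange points are the 900 sites ranked higher after palbociclib, blue points the 872 sites that meet the same rule in the other direction, grey points the remaining 4057, and the line marks equal rank; orange points are missing from the corner of the strongest sites, where no gain of 15 points is possible.

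The mirror rule, which asks for the same separation with the palbociclib libraries weaker, was met by 872 sites, or 15.0%. Percentiles have a fixed sum, so gains at some sites must be balanced by losses at others, and the near-equal numbers say nothing about total binding. Without the minimum difference, 1528 sites (26.2%) stood higher in both palbociclib libraries and 1643 (28.2%) stood lower. Just inside the threshold lay a site at chr1:226374444-226374465 with a gain of 15.005 points, one at chrX:54070562-54070730 with 15.06, and one at chr10:103816072-103816164 with 15.06. Just outside lay sites at chr16:31885166-31885195 (14.997 points), at chr11:88070866-88070891 (14.98) and at chr5:174151637-174151666 (14.97). The gain has no break at the threshold, so the 900 sites are a range of a continuous measure and not a separate class.

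**Figure D2:**
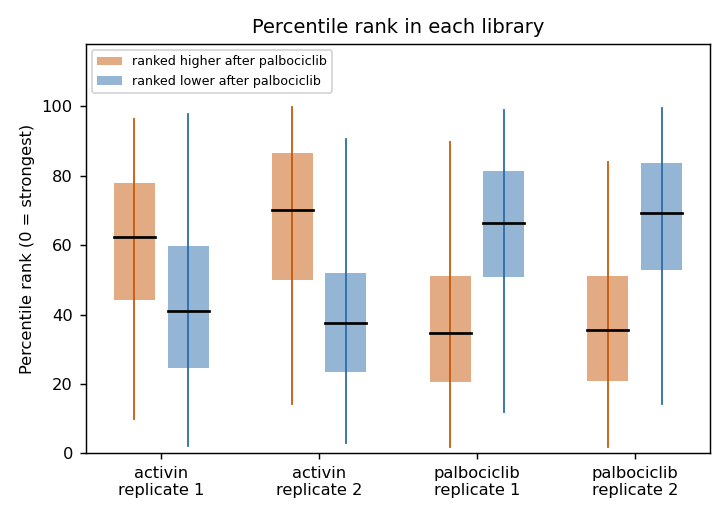
Percentile rank (0 = strongest) in each of the 4 libraries for the 900 sites ranked higher after palbociclib (orange) and the 872 ranked lower (blue). Black lines are medians, boxes run between the quartiles and thin lines between the extremes; the orange medians are 62.5 and 70.2 after activin and 34.7 and 35.4 after palbociclib.

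The percentiles were made from the raw scores, so the scores show the same change of order by construction and add no further evidence. At the 900 sites the median score was 64.8 in activin replicate 1 and 6.77 in activin replicate 2, below the medians of all shared sites in those libraries, 74.7 and 9.5. In palbociclib replicates 1 and 2 it was 146.6 and 68.0, above the medians of all shared sites, 119.5 and 56.0. Read as a significance, a score depends on depth. Each median is therefore to be read against the other sites of its own library, and it is no measure of how much SMAD2 was bound.

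The 2 activin libraries did not contribute alike. Activin replicate 2 ranked 624 of the 900 sites (69.3%) weaker than activin replicate 1 did, against 50.1% of all shared sites. Between the palbociclib libraries the split was even, with 445 sites (49.4%) weaker in replicate 2. The median absolute difference between replicates at these sites was 10.7 points for activin and 5.94 points for palbociclib. Over the same shared sites and ranks, but with activin replicate 1 alone standing for its group, the median gain was 22.2 points and 700 of the 900 sites gained 15 points or more. With activin replicate 2 alone the median gain was 28.7 points and 815 sites did. The rule required both palbociclib libraries to rank a site above each activin library, so some gain at every site was fixed by the choice. These values describe the share of each activin library and are no check of the sites. When sites and ranks were rebuilt without activin replicate 2, the remaining 3 libraries had 14053 sites in common. Of these, 1058 (7.53%) met the rule, and 239 of the 900 sites were among them. Percentiles then ran over 14053 sites in place of 5829, so 15 points did not stand for the same change of order as in the main ranking. Rebuilding without any other single library kept between 797 and 816 of the 900 sites.

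Gains were next chosen among all shared sites in the libraries of 1 replicate number and read in those of the other. The 900 sites themselves were chosen with all 4 libraries, so this is a description and no independent check of them. Sites that gained 15 points or more from activin to palbociclib in the replicate 1 libraries numbered 915, or 15.7% of the shared sites. In the replicate 2 libraries, 574 of these 915 sites also gained 15 points or more, or 62.7% (Wilson 95% interval 59.6 to 65.8), while 21.2% of all shared sites did. Their median gain in replicate 2 was 21.6 points, against −0.62 over all shared sites, and 2.84% of them lost 15 points or more there, against 21.7% of all shared sites. In the reverse direction, 1235 sites gained in replicate 2, and 46.5% of these (43.7 to 49.3) also gained in replicate 1, against 15.7% of all shared sites. Of the 574 sites that gained in both replicates, 566 are among the 900 and 8 are not, because their groups overlap. Of the sites chosen in replicate 1, 86.7% ranked higher to any extent after palbociclib in replicate 2, against 47.6% of all shared sites. All shared sites include the strongest ones, which have no room to gain 15 points. The part of strength in these differences, and in those of the exchanged pairs below, was not tested.

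**Figure D3:**
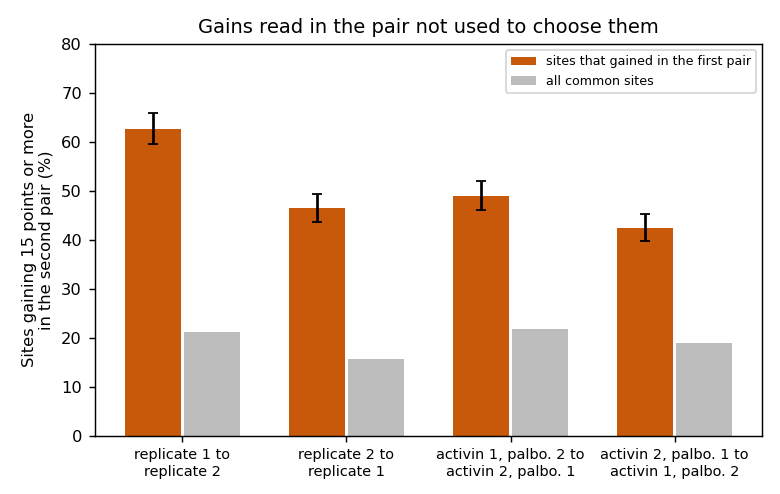
Share of sites (%) that gained 15 percentile points or more in a second activin and palbociclib pair. Orange bars are sites chosen for such a gain in the first pair, with Wilson 95% intervals, and grey bars are all 5829 shared sites; the orange bars stand at 62.7%, 46.5%, 49.0% and 42.5%, and the grey bars at 21.2%, 15.7%, 21.8% and 18.9%.

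When each activin library was paired with the palbociclib library of the other replicate number, recurrence was lower but still above all shared sites. Of 1104 sites that gained between activin replicate 1 and palbociclib replicate 2 (18.9% of the shared sites), 49.0% (46.1 to 52.0) gained between activin replicate 2 and palbociclib replicate 1, against 21.8% of all shared sites. Of the 1273 sites chosen in the latter pair, 42.5% (39.8 to 45.2) gained in the former. The 2 pairs of each comparison share no ChIP library. With 1 input library for each treatment, the pairs may share inputs in peak calling. Whether the inputs had a part in the recurrence was not tested. The intervals cover counting error only, and sites are not independent replicates.

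The 15 sites with the largest gain lay on 12 chromosomes. First was a site at chr3:49142146-49142244 (hg19), at percentiles 82.7 and 99.8 in the activin libraries (replicate 1 first) and 25.1 and 27.9 in the palbociclib libraries. Its scores in the same order were 47.4, 1.85, 168.5 and 76.6. The second, at chr9:36258488-36258532, stood at 78.9 and 99.0 after activin and at 15.5 and 34.4 after palbociclib. At both sites the activin replicates lay well apart, and both palbociclib values were far below them. The third, at chr2:53994996-53995021, had close activin values of 87.4 and 88.0 and palbociclib values of 17.8 and 32.2. The fourth, at chr13:45563580-45563711, moved from 91.2 and 94.7 to 35.7 and 25.1. The fifth, at chr14:75179714-75179834, moved from 92.6 and 99.1 to 26.7 and 40.6. At these last 3 sites the activin libraries lay closer to each other than to any palbociclib value.

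**Figure D4:**
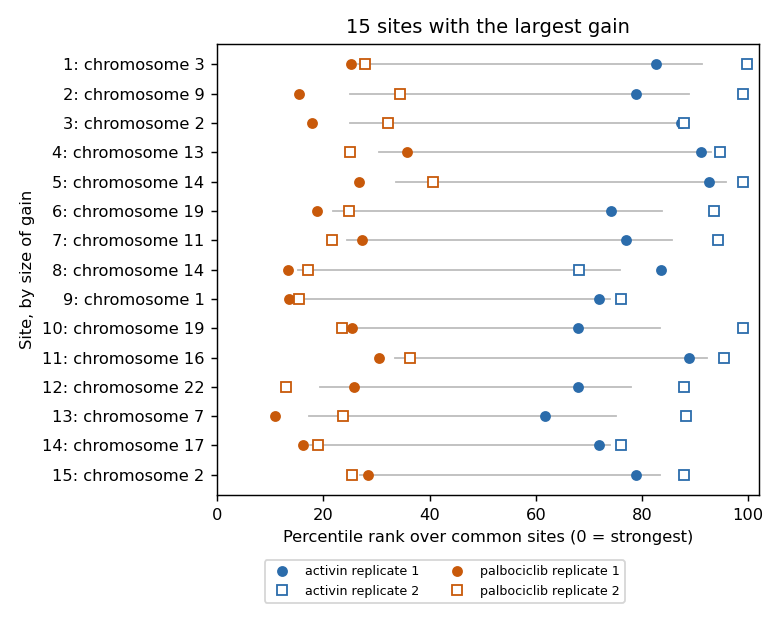
Percentile rank over the shared sites (x axis, 0 = strongest) in each library for the 15 sites with the largest gain, listed by size of gain with their chromosome. Blue symbols are activin and orange symbols palbociclib libraries, filled circles are replicate 1, open squares replicate 2, and grey lines join the group means; no palbociclib value is above 40.6 and no activin value below 61.7.

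The next sites were at chr19:15529758-15529766, with a percentile of 83.9 ± 13.8 after activin and 21.7 ± 4.25 after palbociclib (SD, n = 2 each), and at chr11:73498968-73499025, with 85.7 ± 12.1 and 24.4 ± 3.95. A site at chr14:53019156-53019186 was the only one of the 15 that activin replicate 1 ranked weaker than replicate 2 (83.6 and 68.1). After palbociclib it stood at 13.3 and 17.1. The site with the widest gap between groups, 56.5 points, was at chr1:202311004-202311018, with 71.8 and 76.2 after activin and 13.6 and 15.4 after palbociclib. A site at chr19:13044485-13044497 had the largest activin spread of the 15, at 67.9 and 99.0, and palbociclib values of 25.3 and 23.6. The other 5 lay at chr16:24550956-24551028, chr22:41047893-41047954, chr7:66146990-66147013, chr17:47866208-47866306 and chr2:74153945-74154040, with gains of 56.5 to 58.8 points. Scores of the 15 sites were 35.2 to 65.7 in activin replicate 1 and 1.85 to 6.83 in activin replicate 2. In palbociclib replicates 1 and 2 they were 144.6 to 219.7 and 63.5 to 103.6. The activin replicate 2 scores compare with a lowest score of 1.4 in that list and a median of 9.5 over its shared sites.

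The 10 sites with the best mean rank after palbociclib formed a different group, since a site close to the top of both rankings has little room to move. They lay on 8 chromosomes, and each was within the strongest 5.39% of shared sites in both palbociclib libraries. Their activin means ran from 19.4 to 40.9. The first, at chr16:2732355-2732435, stood at 22.4 and 38.1 after activin and at 2.28 and 1.78 after palbociclib, with palbociclib scores of 338.2 and 192.8. The second, at chr11:63953077-63953120, moved from 17.5 and 45.4 to 1.8 and 2.33. A site at chr6:36562128-36562141 stood at 45.8 and 28.7 after activin and at 3.79 and 2.52 after palbociclib. The largest gain of the 10, 36.3 points, was also on chromosome 6, from 160210589 to 160210608, from 43.8 and 38.1 to 5.39 and 3.76. The others were at chr1:25573872-25573911, chr3:101405523-101405595 and chr3:48282627-48282726, chr7:140396537-140396548, chr10:74856548-74856575 and chr19:40931861-40931948. Activin replicates agreed most closely at the chromosome 10 site, with 21.6 and 19.4 against 4.01 and 3.42 after palbociclib.

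By their place in the activin ranking, 230 of the 900 sites (25.6%) began in the stronger part, with an activin mean of at most 50. Their median mean percentile after palbociclib was 15.5, and their median gain was 21.0 points. Another 360 sites began between 50 and 75 and moved to a median of 35.4, a median gain of 27.0 points. The remaining 310 sites (34.4%) began above 75 and moved to 56.7, with a median gain of 27.9 points. Sites crossing the middle of the ranking, from an activin mean over 50 to a palbociclib mean of at most 50, numbered 445 (49.4%). Over all shared sites 572 (9.81%) crossed in this way. Within the strongest 10% by group mean, 52 of the 900 sites were found after palbociclib and, as the rule requires, 0 after activin. Within the strongest 25% the numbers were 288 and 11. Over all shared sites the numbers were 539 and 535 within 10%, and 1416 and 1367 within 25%. The rule selects sites that move in this direction, so these counts describe the choice. The weakest mean after palbociclib was 79.4.

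The position and shape of the sites had no part in the rule, beyond the joining distance. The stretch covered by the summits of a site had a median of 46 bp and quartiles of 27 and 83 bp. Over all shared sites the median was also 46 bp, and in the mirror set it was 42 bp. At 893 of the 900 sites each library had exactly 1 summit. The other 7 had 2 summits in activin replicate 2 and 1 in each of the other libraries, and over all shared sites 13 had more than 1 summit in activin replicate 2. All 7 thus tied at 5 summits. The 3 named are the first of them in genome order: at chr1:53704149-53704373, at chr2:128283998-128284347 and at chr5:68485242-68485471. An exact permutation test on the mean number of summits per site, 2 against 2 libraries, returned p = 1 on a two-sided basis. Only activin replicate 2 departed from 1 summit per site, so every split of the libraries gave the same absolute difference. The test could therefore show neither a difference nor its absence.

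The place of the summits differed little. The best summits of the palbociclib replicates lay a median of 15 bp apart at the 900 sites, and those of the activin replicates 27 bp. Between treatments the median distance was 17 bp for the replicate 1 libraries and 22 bp for the replicate 2 libraries. Over all shared sites these 4 medians were 16, 26, 20 and 22 bp. The group mean positions lay a median of 16.5 bp apart at the 900 sites and 17 bp apart over all shared sites. The median distances between treatments were thus no larger than that between the activin replicates.

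The sites had somewhat fewer neighbours than shared sites in general. Another site of any kind lay within 10 kb of 596 of the 900, or 66.2% (Wilson 95% interval 63.1 to 69.2), against 71.2% of all shared sites (70.0 to 72.3). Within 2000 bp the shares were 53.7% (50.4 to 56.9) and 58.8% (57.6 to 60.1). Within 100 kb the median number of other sites was 6, against 7 over all shared sites, and 71 of the 900 (7.89%) had none, against 6.33%. In the mirror set 70.5% had another site within 10 kb. Shared sites in general include the strongest ones, which the rule cannot choose, and the part of strength in this difference was not tested.

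Sites that were not shared by all libraries were also counted around the 900 sites. Within 10 kb of the 900 sites, a summit of activin replicate 1 in such a site was found at 47.8%, of activin replicate 2 at 10.2%, of palbociclib replicate 1 at 50.0% and of palbociclib replicate 2 at 40.3%. The difference of the group means was 16.2 points, smaller than the distance between the activin replicates. The exact permutation test gave p = 0.667 (two-sided), and since 2 against 2 libraries cannot go below 0.333 it cannot show a difference or its absence. Over all shared sites the difference was 16.4 points, with 54.7%, 13.5%, 55.3% and 45.8% in the same order. Within 2000 bp the difference was 10.2 points at the 900 sites and 8.94 over all shared sites. Without activin replicate 2, with the sites also chosen anew, the difference was −7.23 points. Sites present after palbociclib in each replicate but in no activin library lay within 10 kb of 69 of the 900 sites, or 7.67% (6.1 to 9.59), against 9.92% of all shared sites (9.17 to 10.7). Sites of the activin libraries alone lay near 9 of them (1.0%), against 1.36%. Within 2000 bp, sites of the palbociclib libraries alone lay near 3.67% of the 900 and 3.33% of all shared sites, so the order of the 2 shares changed with the window.

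Where a site had neighbours, its standing among them changed as well. Of the 596 sites with another site within 10 kb, 86.9% had the highest score of that stretch in activin replicate 1 and 84.6% in activin replicate 2. In the palbociclib libraries these shares were 92.3% and 93.0%. Over all shared sites with a neighbour they ran from 84.3% to 85.0% in the 4 libraries. This follows from the same scores that chose the sites and is a description of them.

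The nearest other shared site lay a median of 67262 bp away, against 58655 bp over all shared sites, and within 10 kb for 112 of the 900. Of these 112 neighbours, 11 (9.82%, Wilson 95% interval 5.57 to 16.7) were themselves among the 900, where 15.4% of all shared sites are, a value inside the interval. Another 13 met the mirror rule. The median gain of the 112 neighbours was 0.60 points, with quartiles of −7.61 and 8.46, and 62 of them (55.4%) gained to any extent, against 47.6% of all shared sites. Within 100 kb, 68 of 533 neighbours (12.8%, 10.2 to 15.9) were among the 900, and their median gain was −0.39 points. Without activin replicate 1 the share within 10 kb was 26.1% with sites chosen anew, and without activin replicate 2 it was 5.67%, where 20.8% and 7.53% of the shared sites met the rule. The 6 pairs of the 900 sites within 10 kb of each other were on chromosomes 6 (2 pairs), 7, 10, 15 and 16. The closest pair, at chr7:66460506-66460522 and from 66461853 to 66461922, lay 1373 bp apart and gained 33.6 and 25.9 points. On chromosome 6 a pair 2711 bp apart, from 4018839 to 4018891 and from 4021452 to 4021700, gained 43.1 and 20.5 points.

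The sites were spread over all 23 chromosomes analysed. In 1 Mb windows, 664 windows held at least 1 of them, 489 held 1, 127 held 2, 38 held 3, 7 held 4 and 3 held 5. The 5 windows described next were picked for holding the most of these sites, so their counts are high by choice. Of all shared sites, 15.4% are among the 900. On chromosome 7 between 66 and 67 Mb, 5 of the 9 shared sites were among the 900 and none met the mirror rule. They included the site from 66146990 to 66147013, with a gain of 57.7 points, and the close pair above. The others there ran from 66093530 to 66093586 and from 66767674 to 66767710. On chromosome 3 between 52 and 53 Mb, 5 of 14 shared sites gained 18.4 to 29.98 points. They ran from 52008004 to 52008036, from 52188308 to 52188353, from 52232159 to 52232226, from 52273378 to 52273416 and from 52740156 to 52740239. At the last pair of these the activin replicates lay far apart, at 28.0 and 70.2 and at 22.3 and 68.1, and activin replicate 1 alone lay near the palbociclib values.

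On chromosome 16 between 30 and 31 Mb, 5 of 25 shared sites were among the 900, against 15.4% of all shared sites, and 3 met the mirror rule. They started at 30077154, 30366506, 30669078, 30773669 and 30817005 and gained 19.3 to 37.2 points. Among the 7 windows with 4 sites, the first 2 in genome order were on chromosome 1 between 156 and 157 Mb and on chromosome 3 between 49 and 50 Mb. In the former 4 of 11 shared sites gained 20.8 to 38.5 points, starting at 156024454, 156163915, 156307995 and 156710816. In the latter 4 of 17 gained 15.2 to 64.7 points, starting at 49131528, 49142146, 49377700 and 49756905, and none met the mirror rule. The remaining shared sites of these 5 windows had median gains between −4.43 and 0.07 points. The rule had removed sites with large gains from these medians, so low values follow from the choice. Over all shared sites, with the 900 included, the median gain was −0.57 points.

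The share of shared sites among the 900 was highest on the X chromosome, where it was 35 of 172, or 20.3% (Wilson 95% interval 15.0 to 27.0). Chromosome 18 followed with 11 of 56 (19.6%, 11.3 to 31.8), chromosome 7 with 58 of 304 (19.1%, 15.1 to 23.9) and chromosome 3 with 62 of 340 (18.2%, 14.5 to 22.7). It was lowest on chromosome 21, with 5 of 55 (9.09%, 3.95 to 19.6), and on chromosome 22, with 13 of 137 (9.49%, 5.63 to 15.6). The interval held the overall 15.4% on 22 of 23 chromosomes. The exception was chromosome 1, with 87 of 685 sites (12.7%, 10.4 to 15.40), where the upper limit fell just short of the unrounded overall share of 15.44%. The mirror set was small on chromosome 1 as well (76 sites, 11.1%). Chromosomes 3 and 22 differed most from an even balance among those with over 100 shared sites: chromosome 3 had 62 sites against 40 of the mirror set, and chromosome 22 had 13 against 27. These shares were not tested.

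**Figure D5:**
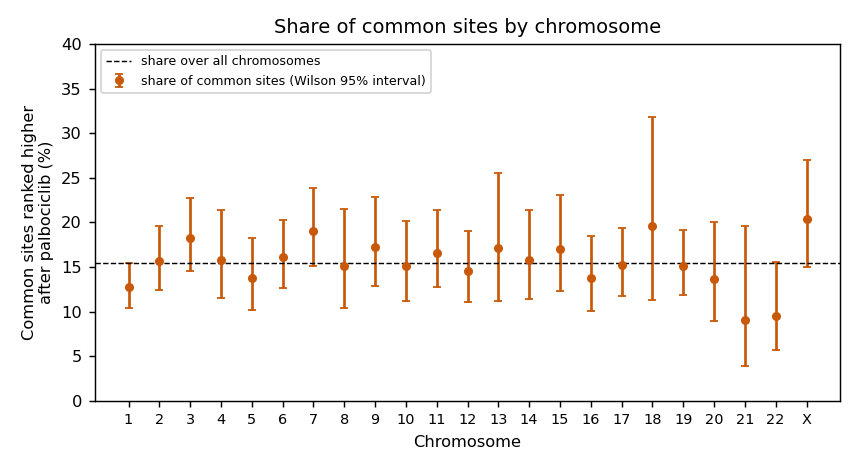
Share of the shared sites of each chromosome (%) that ranked higher after palbociclib, with Wilson 95% intervals, and the overall share of 15.4% as a dashed line. The intervals of 22 of the 23 chromosomes include the line, and the points run from 9.09% on chromosome 21 to 20.3% on the X chromosome.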

How the data were processed

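Peak summits of 4 SMAD2 ChIP-seq libraries were used; the 2 inputs were not analysed here. The submitters' processing notes list build hg19, the peak caller MACS2 2.0.9, the aligner Bowtie 1.1.0 and Picard, without settings. The deposited score was read as a −log10 q-value, because the lists begin at 1.31 to 1.4, above 1.30, the −log10 of 0.05. Whether it is a p or q value is not stated. Lists were per library, and the sample titles name 1 input for each treatment but not the list it served. Coordinates are 1-based on hg19. The 1 summit outside chromosomes 1 to 22 and X was dropped. Tied scores shared a mean rank. Neighbour distances run between site centres. The members and lists were chosen with earlier results of these data known. Sites were named by rule: the 15 largest gains, the 10 best palbociclib ranks, 3 on each side of the threshold, the 3 with the most summits, and members in the 5 densest windows, with ties in genome order; chromosome 8 sites were counted but not named. A genome or gene annotation of hg19 was not used here, so genes, motifs and sequences are not given. The code was tested on simulated lists. Wilson 95% intervals cover counting error only. Software was matplotlib 3.10.9, scipy 1.17.1, pandas 2.3.3 and numpy 2.4.6 under Python 3.11.15. Alternatives covered joining distance, minimum difference, score minimum, the ranking, each library left out, and neighbour windows.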

Additional observations from a re-analysis of the deposited data

How the results depend on the processing

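The number of sites was 656 with a minimum difference of 20 points, 1162 with 10 points and 1006 to 1222 without 1 library. It stayed within 1.5 times 900 under all alternatives run, but the share of shared sites varied more. That share was 20.8% without activin replicate 1 and 7.53% without activin replicate 2, against 15.4% in the main ranking. Without activin replicate 2, only 239 of the 900 sites were kept. The ratio to the mirror set, 1.03, was 0.986 with a minimum of 10 points and 0.952 to 1.03 without 1 library. It was 132 when percentiles ran over all sites of each library, where the shared sites are 80.7% of the sites of activin replicate 2 and at most 30.5% in the other libraries; 923 sites then met the rule, 677 of them among the 900. The share of neighbours within 10 kb that also gained ranged from 5.67% to 26.1% without 1 library, and the treatment difference of unshared neighbours from −7.23 to 34.04 points; the causes were not tested. Recurrence from replicate 1 was 49.0% with exchanged pairs; from replicate 2 it was 54.7% at 10 points, 42.8% at 20 points and 42.5% exchanged. Recurrence needs both pairs, so no library could be left out. Replicate numbers are not stated to pair libraries (correlation of replicate differences between treatments across shared sites, 0.264). With a replicate block, the difference of unshared neighbours was 16.2 points (exact sign flips of 2 pairs, added after seeing the data, p = 0.5). The coarse scores of activin replicate 2 limit the precision of ranks there.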
